A study of Homo sapiens with 4 samples.

Results

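MEIS binding sites in gene deserts were defined by position alone. A site was included when its summit, the base with the highest pileup, lay more than 500 kb from the nearest transcription start site (TSS) of a canonical protein-coding transcript in GENCODE release 44 on GRCh37. Of the 5169 reproducible MEIS sites, 578 (11.2%, 95% Wilson interval 10.4 to 12.1%) met this criterion, and the other 4591 sites served as the comparison. These 578 are called desert sites. A desert is an interval between adjacent canonical protein-coding TSS that holds known bases over 500 kb from any such TSS. It can include the body of a protein-coding gene. Intervals from the outermost TSS to a chromosome end were counted in the same way.

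The sites came from chromatin immunoprecipitation sequencing (ChIP-seq) of hNSC, a commercially supplied culture of human neural stem cells, which were untreated and grown on a Geltrex coating. There were 2 MEIS ChIP samples, replicates 1 and 2, and 2 Input samples of the same cells, against which peaks had been called. Per the study's methods the replicates were 2 batches of these cells processed in parallel. Both immunoprecipitations combined the antibodies K830 (anti-MEISa) and K844 (anti-MEIS1), so that binding of MEIS1 and of MEIS2 cannot be told apart. All samples were of a single cell source without treatment, so that no conditions could be compared. The files hold peaks and no expression values, so that the labelled cell type was not checked against marker genes.

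MEIS1 and MEIS2 belong to the TALE class of homeodomain factors and take part in patterning and differentiation of the nervous system and other tissues. Their binding core is TGACAG, and they often bind together with PBX proteins, which are TALE factors as well. Gene deserts are long stretches without protein-coding genes, and many of them flank developmental regulators and neural adhesion genes and are known to hold enhancers that act over long distances. Each desert site is described by its flanking genes, which are the genes with the nearest canonical protein-coding TSS on either side. Flanking is a statement of position, and no target gene was assigned to any site.

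The strength of a site is given as -log10 p, the significance that the peak caller gave to the enrichment of ChIP over Input. The size of the enrichment is the fold enrichment, a separate value. To show what the strongest desert sites look like, the reference sequence (GRCh37, plus strand) is printed for 9 of the 10 desert sites with the highest -log10 p. Capitals mark every TGACAG, which reads CTGTCA where it lies on the minus strand, and each run is centred on the TGACAG nearest the summit. The first ADGRA3 to PPARGC1A site and the KCNJ2 to SOX9 site had no TGACAG in the 500 bp window around the summit, so that they are shown around their summits and carry no capitals.
EPHA7 to MANEA site, chr6:94755496-94755601: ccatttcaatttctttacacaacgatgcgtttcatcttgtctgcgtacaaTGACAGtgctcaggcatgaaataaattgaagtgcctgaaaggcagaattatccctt
ADGRA3 to PPARGC1A site, chr4:23327765-23327865: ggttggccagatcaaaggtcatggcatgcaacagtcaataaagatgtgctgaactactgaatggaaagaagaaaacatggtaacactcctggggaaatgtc
ADGRA3 to PPARGC1A site, chr4:23163612-23163717: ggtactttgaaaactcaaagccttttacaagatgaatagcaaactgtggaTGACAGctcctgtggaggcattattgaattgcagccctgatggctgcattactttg
PABPC4L to PCDH18 site, chr4:137025014-137025119: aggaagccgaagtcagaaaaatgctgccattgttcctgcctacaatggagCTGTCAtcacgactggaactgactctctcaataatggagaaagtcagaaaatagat
RNF144B to ID4 site, chr6:19312606-19312711: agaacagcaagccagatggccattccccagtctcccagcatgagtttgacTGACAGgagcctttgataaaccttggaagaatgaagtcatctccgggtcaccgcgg
KCNJ2 to SOX9 site, chr17:68903122-68903222: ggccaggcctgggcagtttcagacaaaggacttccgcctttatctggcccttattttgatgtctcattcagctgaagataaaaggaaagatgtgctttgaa
ARRDC3 to NR2F1 site, chr5:92315270-92315375: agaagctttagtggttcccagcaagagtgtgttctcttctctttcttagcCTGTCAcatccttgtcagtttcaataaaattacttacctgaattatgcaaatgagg
ADGRL4 to ADGRL2 site, chr1:81730723-81730828: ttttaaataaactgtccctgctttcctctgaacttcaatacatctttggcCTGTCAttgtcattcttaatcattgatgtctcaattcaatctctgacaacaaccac
TENM4 to FAM181B site, chr11:79675422-79675527: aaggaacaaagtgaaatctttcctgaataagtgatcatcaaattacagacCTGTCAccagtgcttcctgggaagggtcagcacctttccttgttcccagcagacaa

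In 4 of these 9 sequences the TGACAG was centred within 5 bp of the summit, namely in the second ADGRA3 to PPARGC1A site (1.5 bp) and in the sites flanked by ID4, NR2F1 and TENM4 (3.5 bp each). In the strongest site the nearest TGACAG was 235.5 bp away, close to the edge of the window.

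The strongest desert site, at chr6:94754146-94755995 between EPHA7, an Eph receptor of axon guidance, and MANEA, a Golgi mannosidase, had 2882 (replicate 1) and 2930 (replicate 2) as -log10 p. It ranked 2 among all 5169 sites, and its fold enrichment over Input was 141 in replicate 1 and 298 in replicate 2. It lay 626 kb from EPHA7 and 1270 kb from MANEA. Both replicates placed it well above every other desert site. Fold enrichment was generally higher in replicate 2, with a median ratio to replicate 1 of 1.85 in desert and 1.79 in other sites.

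The next 3 were on chromosome 4. The ADGRA3 to PPARGC1A interval, between an adhesion G protein-coupled receptor and a coactivator of mitochondrial biogenesis, held the second and the third. The second (chr4:23327240-23328912, rank 33) had 1127 (replicate 1) and 920 (replicate 2) as -log10 p. The third (chr4:23162500-23165140, rank 34) had 918 and 1514, so that the replicates ordered this pair differently. The fourth (chr4:137024393-137027096, rank 40), between PABPC4L and the protocadherin gene PCDH18, had 890 and 874 and was 1429 kb from the nearer TSS, that of PCDH18, which made it the most remote of the 10.

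Of the other six, the site at chr6:19311671-19313572 had 632 (replicate 1) and 613 (replicate 2) as -log10 p, and was 525 kb from ID4, which encodes an inhibitor of bHLH factors. The site at chr17:68902573-68904070 had 609 and 928, and lay between KCNJ2, an inward rectifier potassium channel, at 738 kb and SOX9, an HMG box factor of neural stem cells and glia, at 1214 kb. The site at chr5:92314788-92316154 had 505 and 598 and was 604 kb from NR2F1, an orphan nuclear receptor of cortical patterning. All 3 ranked between 69 and 97 among all sites.

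The site at chr1:81730250-81731601 had 635 (replicate 1) and 471 (replicate 2) as -log10 p and was 536 kb from ADGRL2, a latrophilin of synapses. The site at chr8:69829992-69831345 had 439 and 775, and was 575 kb from SULF1, a heparan sulfate sulfatase, and 587 kb from C8orf34. The site at chr11:79674276-79676330 had 432 and 679 and was 523 kb from TENM4, a teneurin of neuronal cell adhesion. All 10 lay outside protein-coding gene bodies, 3 of them inside the body of a long non-coding RNA (lncRNA). In 6 of the 10 the -log10 p was higher in replicate 2, as it was in most desert sites. They fell into 9 deserts. The order is that of the list, and a site at chr1:83027884-83031682, 762 kb from ADGRL2 on its other side toward TTLL7, had a list value of 61.4, although its strongest overlapping peaks had 647 (replicate 1) and 589 (replicate 2). By the lower of these values it would be among the 10.

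**Figure D1:**
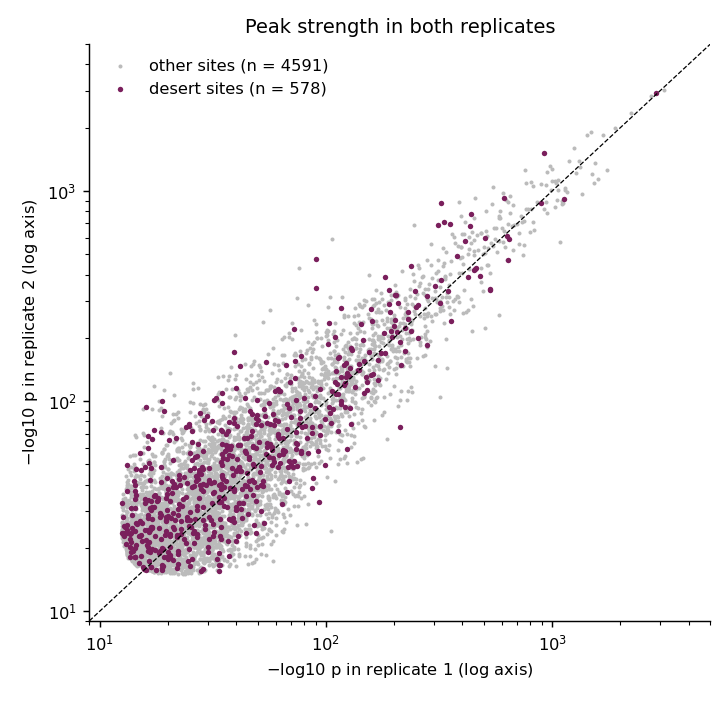
The -log10 p of each reproducible MEIS site in replicate 1 (x axis) and replicate 2 (y axis), both on log axes, with the 578 desert sites in purple, the 4591 other sites in grey and equality as a dashed line. Desert sites spread over the whole range of the other sites, from 12.6 to 2882 in the list, with the EPHA7 to MANEA site at the top right.

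Across all desert sites the -log10 p in the list had a median of 33.2 and quartiles of 19.7 and 61.6, against 28.8, 19.0 and 57.5 in the other sites. In replicate 1 the medians were 36.4 for desert and 33.1 for other sites, and in replicate 2 they were 47.3 and 39.1. The value was higher in replicate 1 for 187 of the 578 desert sites (32.4%) and for 1666 of the 4591 other sites (36.3%). The replicates were within 2-fold of each other for 486 desert sites (84.1%) and 3962 other sites (86.3%). The summits called in the replicates were a median of 12 bp apart in desert sites and 11 bp in other sites. The list keeps only sites that ranked alike in both replicates, so that this closeness is a description of how the list was made.

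Desert sites were more often strong by a small margin that most other settings did not keep. Of the 578, 315 (54.5%) had a -log10 p above the median of all sites, against 2267 of the 4591 other sites (49.4%), with a background of 50% over the whole list (Fisher's exact test, two-sided, OR = 1.23 [1.03–1.47], p = 0.0217). The same comparison on fold enrichment, as the mean of both replicates, gave OR = 1.33 [1.11–1.59] (Fisher's exact test, p = 0.00148). The difference did not hold within classes of GC content (Mantel-Haenszel OR = 1.19 [0.993–1.42]) or when all peaks were ranked by replicate 2 alone (OR = 1.14 [0.959–1.35]). In 8 of 13 alternatives the call was lost, with an odds ratio above 1 in each. Among the 100 strongest sites 7 were desert sites, and among the 500 strongest 67 (13.4%).

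These tests treat sites as the units. Sites are not replicates of an experiment, and sites in the same desert share their surroundings. When only the first site by position was kept from each desert, the odds ratio for strength was 1.37 [1.03–1.83] (Fisher's exact test, p = 0.0253). The number of sequencing reads is unknown from these files, so that counting error could not be given.

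The rule that chose the sites was a distance, and sites on either side of it had similar values. The desert sites closest to the limit were 500.004 kb (STIM2 to PCDH7), 500.044 kb (FAM98A to CRIM1) and 500.516 kb (YTHDF3 to BHLHE22) from a TSS, with a -log10 p of 21.2, 140 and 23.5. The other sites closest to it were at 499.733 kb (COG6 to FOXO1), 499.648 kb (PRR32 to ACTRT1) and 499.282 kb (MPDZ to NFIB), with 62.5, 36.1 and 18.8.

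Most desert sites were 0.5 to 1 Mb from a TSS. The median distance was 728 kb, and 141 sites were farther than 1 Mb. The most remote site, at the summit chr4:33106252 between the protocadherin gene PCDH7 and ARAP2, was 2384 kb from PCDH7 and weak, with 16.9 (replicate 1) and 16.3 (replicate 2) as -log10 p. It held 4 copies of TGACAG, the highest number in any desert site, which 5 others also reached. The next was at the summit chr18:37332343 between CELF4 and PIK3C3, 2187 kb from CELF4, with 13.6 and 22.2. The third, at the summit chr4:181033646 between AGA and TENM3, was 2131 kb from TENM3 and stronger, with 156 and 171.

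Remoteness from protein-coding genes did not mean remoteness from every annotated transcript. With the TSS of all annotated transcripts, lncRNAs and short isoforms included, 0 of the 578 sites were farther than 500 kb, the largest distance being 398 kb and the median 43.0 kb. Within 5 kb of such a TSS lay 60 desert sites (10.4%), against 1438 other sites (31.3%). Part of this contrast follows from the rule, since these TSS include the canonical protein-coding ones. Of the other sites, 436 lay within 5 kb of a canonical TSS. With the TSS of every transcript of a protein-coding gene, coding or not, 407 sites remained more than 500 kb away. The other sites of the 578 were nearer to an alternative start of such a gene.

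By gene body, 478 desert sites (82.7%) lay outside protein-coding genes and 100 (17.3%) inside, in 49 genes long enough to have parts over 500 kb from their own canonical TSS. Of these 100 sites 92 were in introns of the canonical transcript, 6 were outside that transcript and 2 were in its exons. The exonic sites were in exon 11 of CCSER1 and exon 7 of NLGN1, which encodes a neuroligin of the postsynaptic membrane, with a -log10 p of 26.9 and 17.5. MACROD2, an ADP-ribose hydrolase gene, held the most with 8 intronic sites, of which the strongest reached 336. LRMDA, LRRTM4 and NRXN3 held 4 each, all intronic, and LRRTM4 and NRXN3 both encode proteins of synaptic adhesion. Among the other genes the strongest intronic values were 341 in PCDH9, 311 in AUTS2 and 278 in NRXN3.

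Inside lncRNA bodies lay 149 desert sites (25.8%), of which 7 were in a lncRNA exon. They were spread over 109 lncRNAs. ENSG00000248752 held 9 and LINC02240 held 6, both between ZNF608 and GRAMD2B, where their bodies overlap. MIR99AHG, the host of a microRNA cluster on chromosome 21, held 4. Outside protein-coding and lncRNA bodies alike were 339 desert sites (58.7%).

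The desert sites were set beside the genome they lie in. Bases over 500 kb from a canonical TSS made up 368 Mb, or 12.9% of the 2859 Mb of known bases, and held 1.57 sites per Mb, against 1.84 other sites per Mb in the remaining genome. This is a description, as the share of bases to which short reads map was not measured. Chromosome Y, which held no reproducible site, was counted among the bases. All peaks called in each replicate gave a lower share in deserts, with 9.62% of 36796 peaks in replicate 1 and 10.2% of 47449 in replicate 2.

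Peaks that overlapped a reproducible site were more often in deserts than those that did not. In replicate 1 the shares were 11.2% of 5183 and 9.36% of 31613 peaks (Fisher's exact test, two-sided, OR = 1.22 [1.11–1.34], p = 4.71e-05). In replicate 2 they were 11.2% of 5182 and 10.1% of 42267 (OR = 1.12 [1.02–1.23], Fisher's exact test, p = 0.0173). The replicate 2 difference did not hold once weaker peaks, those below 5 in -log10 p, were left out (OR = 1.06, Fisher's exact test, p = 0.228). At a distance of 1 Mb neither held, with OR = 1.09 [0.903–1.31] in replicate 1 and OR = 0.951 [0.791–1.14] in replicate 2. Beyond the reproducible sites, 2958 peaks of replicate 1 and 4277 of replicate 2 lay in deserts.

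Desert sites were spread over many chromosomes. The numbers were highest on chromosome 4 with 66 of its 374 sites (17.6%), chromosome 3 with 64 of 399 (16.0%) and chromosome 5 with 60 of 423 (14.2%). By share, chromosomes 20 (16.5%), 21 (16.1%), 6 (15.8%) and 13 (15.1%) also came before chromosome 5. Among chromosomes with a desert site the numbers were lowest on gene-dense ones, with 2 of 67 on chromosome 19 and 1 of 57 on chromosome 22. Desert bases were not counted per chromosome.

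The genome, chromosome Y included, had 477 deserts, of which 214 (44.9%) held at least 1 desert site. None of the deserts on chromosome Y held a site. Deserts with a site had a median of 980 kb beyond the 500 kb limit, and the 263 without a site had 281 kb. Of the 131 deserts with at least 1 Mb beyond the limit, 105 (80.2%) held a site. Long deserts without any included those between TMEM132B and TMEM132C (2081 kb beyond the limit), between GATA3 and CELF2 (1963 kb) and between CNTNAP5 and GYPC (1631 kb). These were the longest autosomal examples outside the intervals that span centromeres.

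Sites shared deserts. A single site was found in 80 deserts and 2 sites in 50, while 84 deserts held 3 or more and together 398 desert sites (68.9%). The 5 deserts with the most sites held 47 (8.13%).

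**Figure D2:**
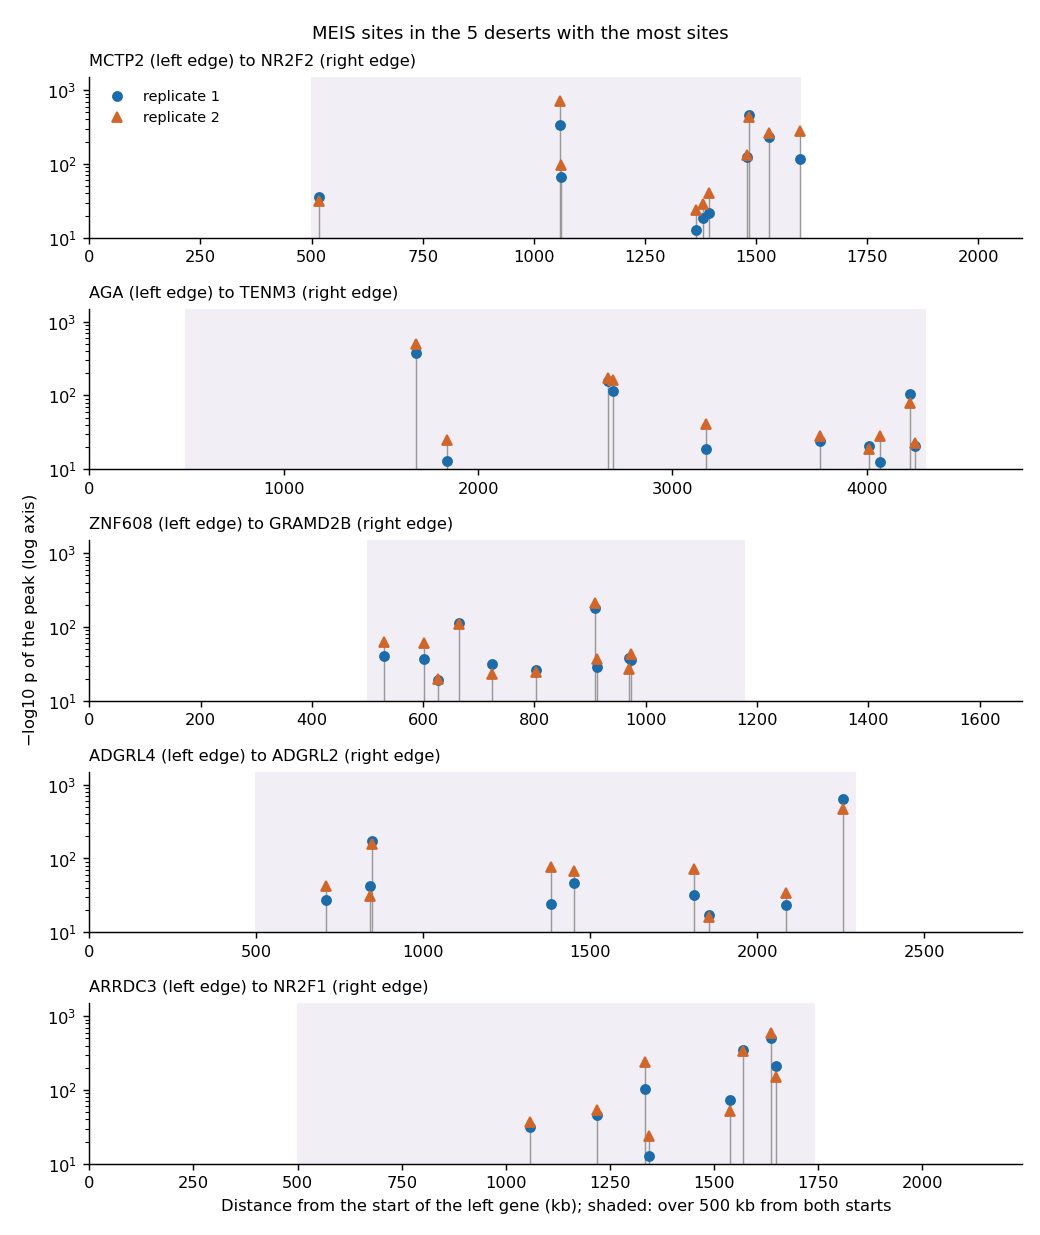
Desert sites in the 5 deserts with the most sites, placed by distance from the TSS of the left gene (x axis, kb), with the -log10 p (y axis, log scale) in replicate 1 as circles and in replicate 2 as triangles. The shaded area is over 500 kb from both TSS, and the strongest site is the one nearest to its right edge in the ADGRL4 to ADGRL2 desert, the second nearest in the ARRDC3 to NR2F1 desert, and far from TENM3 in the AGA to TENM3 desert.

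The desert between MCTP2 and NR2F2 (chr15:94774790-96873929) held 10 desert sites. NR2F2 encodes an orphan nuclear receptor related to NR2F1, with roles in interneurons and vessels. Its sites were strong, with a median -log10 p of 92.0 and a range of 12.7 to 431. TGACAG was in 7 of the 10, against 55.9% of all desert sites. The strongest was 615 kb from NR2F2 with 461 in replicate 1 and 431 in replicate 2, and the next was 1040 kb away with 333 and 711. Of the 10 sites, 9 were nearer to NR2F2 than to MCTP2, and 8 were stronger in replicate 2, as most desert sites were. On the other side of NR2F2, the desert up to ARRDC4 held 6 more, so that NR2F2 flanked 16 desert sites.

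The desert between AGA, a lysosomal amidase gene, and TENM3, a teneurin gene, measured 4801 kb and also held 10 desert sites. They spanned 2563 kb, with a median -log10 p of 22.4. The strongest was 3118 kb from TENM3 and 1683 kb from AGA, with 380 in replicate 1 and 490 in replicate 2. The site nearest to TENM3, at 555 kb, was weak, with 20.4 and 22.7. Of the 10 sites 8 were nearer to TENM3 than to AGA, and 4 held TGACAG.

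The desert between ZNF608, a zinc finger gene, and GRAMD2B was shorter, at 1677 kb, and its 10 desert sites fell within 445 kb. The strongest had 180 (replicate 1) and 211 (replicate 2) as -log10 p, and the median in the list was 27.9. Of the 10 sites 4 were nearer to GRAMD2B than to ZNF608, and 5 held TGACAG. The site 665 kb from ZNF608 had a list value of 24.8 although the strongest overlapping peaks had 114 and 109, and for 574 of the 578 desert sites the list value was the lower of the replicate values. A further 14 reproducible sites lay in this interval nearer to the genes, more than in the other 4 deserts described.

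The desert between ADGRL4 and ADGRL2, both adhesion G protein-coupled receptor genes, held 9 desert sites over 1548 kb. The strongest was the site 536 kb from ADGRL2 described above, and a second, 847 kb from ADGRL4, had 171 in replicate 1 and 156 in replicate 2. The other sites were between 16.3 and 46.7 in the list. Of the 9 sites 5 were nearer to ADGRL2 than to ADGRL4, and 4 held TGACAG.

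The desert between ARRDC3, an arrestin domain gene, and NR2F1 held 8 desert sites, with a median of 77.3. Toward NR2F1, the sites at 671, 604 and 591 kb had 346, 505 and 214 in replicate 1 and 333, 598 and 148 in replicate 2. Of the 8 sites 7 were nearer to NR2F1 than to ARRDC3, and 4 held TGACAG. The deserts between KCNJ2 and SOX9, TENM4 and FAM181B, FLRT3 and KIF16B, and LCORL and SLIT2 also held 8 desert sites each. The ARRDC3 to NR2F1 desert was placed before them by its higher summed -log10 p. Deserts as defined here can include gene bodies. The 100 desert sites inside protein-coding genes, 8 of them in MACROD2, are counted in such deserts.

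The 578 sites had 397 distinct flanking genes. These were counted against 6 gene lists, and 364 sites (63.0%) had a flanking gene on at least 1 list, with a background of 32% over all sites. The counts carry no test, since a flanking gene is shared by all sites of its desert.

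**Figure D3:**
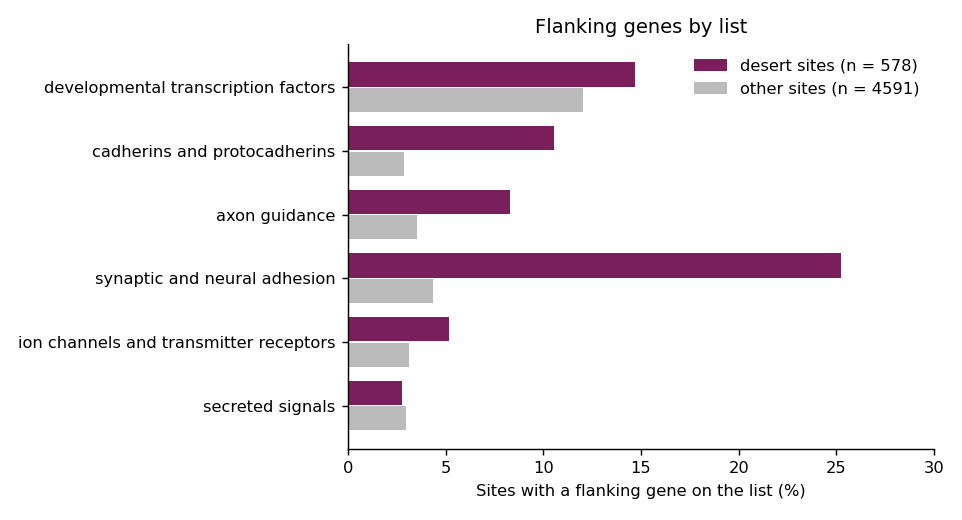
Share of sites (x axis, %) with a flanking gene on each of 6 gene lists (y axis), in purple for the 578 desert sites and in grey for the 4591 other sites. Synaptic and neural adhesion genes flanked 25.3% of desert sites and 4.33% of other sites, and secreted signals 2.77% and 2.98%.

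Genes of synaptic and neural adhesion flanked the most desert sites, 146 of 578 (25.3%), against 199 other sites (4.33%) and a background of 6.67%. Of the 105 genes on the list 35 flanked a desert site. ADGRL2 flanked 14, the nearest at 528 kb, TENM3 flanked 10 and TENM4 flanked 8. ADGRL4, which the list matched by its name and which is best known from vessels, and CSMD3, a large transmembrane protein gene, flanked 9 each. The strongest of the sites beside CSMD3 had 121 (replicate 1) and 93.8 (replicate 2) as -log10 p. Among deserts, 45 of the 214 with a site (21.03%) and 26 of the 263 without (9.89%) had a gene of this list on an edge, and the deserts with a site were longer, as given above. The part of length in this was not tested. The share among deserts with a site was also the higher for cadherins and protocadherins (8.88% and 3.42%) and for axon guidance (7.01% and 4.94%), and was nearly equal for secreted signals (2.80% and 2.66%). It was the lower for developmental transcription factors (12.15% and 13.69%) and for ion channels and transmitter receptors (5.61% and 9.51%).

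Cadherins and protocadherins, which mediate homophilic adhesion, flanked 61 desert sites (10.6%), against 131 other sites (2.85%) and a background of 3.71%. CDH8 flanked 12, with the strongest at 239 in replicate 1 and 438 in replicate 2. PCDH9 flanked 9, and the strongest of these, at 533 and 341, lay in an intron of PCDH9 itself. CDH11 and PCDH7 flanked 7 each and PCDH10 flanked 5. The strongest site beside PCDH10, at 231 and 245, was 3038 kb away.

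Axon guidance genes flanked 48 desert sites (8.30%), against 163 other sites (3.55%) and a background of 4.08%. EPHA7 flanked 10, among them the strongest desert site of all. SLIT2, which encodes a repellent ligand of Robo receptors, flanked 8, and the strongest of these differed between the replicates, with 90.2 in replicate 1 and 347 in replicate 2. The ephrin gene EFNA5 flanked 6, the semaphorin gene SEMA6A 4 and the Eph receptor gene EPHA5 3, of which the strongest, at 509 kb, had 426 and 391.

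Developmental transcription factors flanked 85 desert sites (14.7%), close to the background of 12.3%, and 553 other sites (12.05%). Of the 374 genes on the list 24 flanked a desert site. Behind NR2F2 with 16 sites came NR2F1 and SOX9 with 8 each. ZEB2, a zinc finger repressor of neural crest and interneurons, flanked 7, the strongest 841 kb away with 354 in replicate 1 and 696 in replicate 2. ZIC1, a zinc finger gene of the dorsal neural tube, flanked 6, the strongest 521 kb away with 183 and 391.

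Ion channels and transmitter receptors flanked 30 desert sites (5.19%), against a background of 3.37%, of which 8 were shared between KCNJ2 and SOX9. Deserts without a site had a gene of this list on an edge more often, at 25 of 263, than deserts with one, at 12 of 214. KCNV1 flanked 6, KCNMA1 4 and KCNT2 3. The strongest site beside KCNT2 had 480 in replicate 1 and 394 in replicate 2. Secreted signals and their feedback inhibitors flanked 16 desert sites (2.77%), against a background of 2.96%. NRG3, a neuregulin gene that is also on the adhesion list, flanked 4, SPRY1 and FSTL5 3 each, and FGF12 and SPRY2 2 each. SPRY1 and SPRY2 encode intracellular inhibitors of receptor tyrosine kinase signaling, and FGF12 encodes a member of the FGF family that is not secreted.

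A difference in the frequency of the MEIS core between desert and other sites was not shown. TGACAG occurred on either strand in the 500 bp window of 323 of 578 desert sites (55.9%, 95% interval 51.8 to 59.9%) and of 2689 of 4591 other sites (58.6%), with a background of 58.3% (Fisher's exact test, two-sided, OR = 0.896 [0.7499–1.07], p = 0.227). In windows 2 kb to either side of the summits it occurred in 28.3% for desert and 28.4% for other sites. A single TGACAG was found in 229 desert sites (39.6%), 2 in 65 (11.3%) and 3 or more in 29 (5.02%).

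A difference in its position was not shown either. Among sites with TGACAG, 220 of 323 desert sites (68.1%) and 1822 of 2689 other sites (67.8%) had it within 50 bp of the summit, with a background of 67.8% (OR = 1.02 [0.789–1.32], p = 0.95 by Fisher's exact test). The median distance was 14.5 bp in desert and 15.5 bp in other sites. Desert sites with and without TGACAG had nearly the same strength, with a median -log10 p of 33.2 in both.

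**Figure D4:**
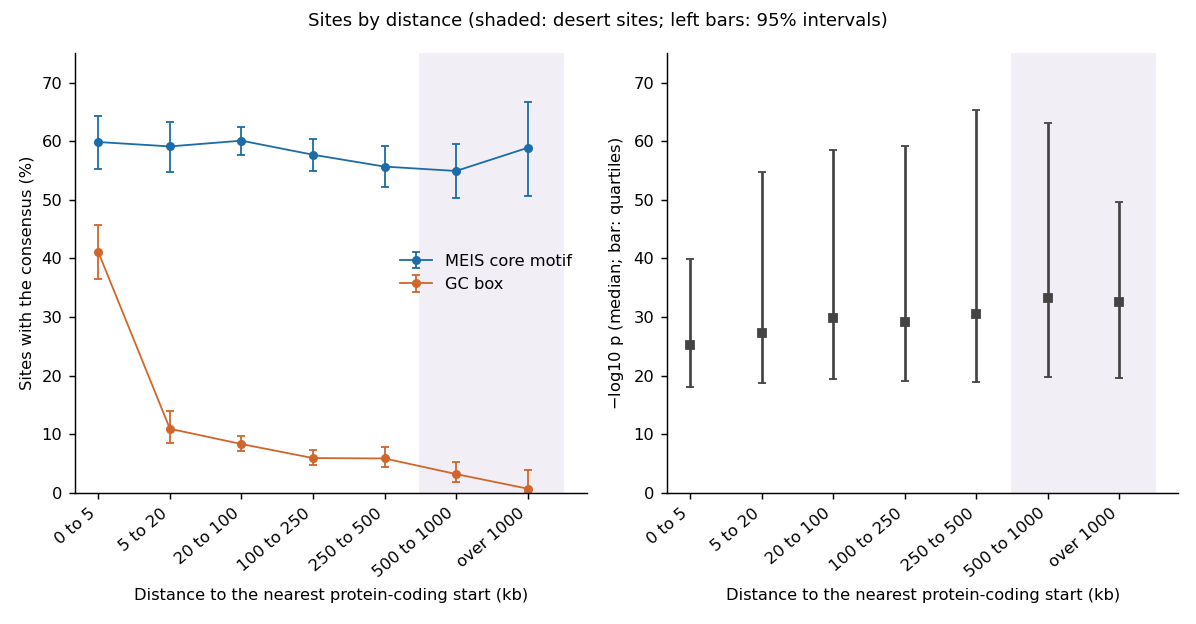
Reproducible MEIS sites by distance to the nearest canonical protein-coding TSS (x axis, kb), with the share holding the MEIS core motif or a GC box (left, %, bars are 95% Wilson intervals) and the median -log10 p (right, bars are quartiles). The core motif stayed between 54.9 and 60.1% in every class, while the GC box went from 41.1% within 5 kb to 0.709% beyond 1000 kb, and the shaded classes are the desert sites.

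Desert sites were poorer in GC than the other sites. The GC content of the window had a median of 39.2% in desert and 42.4% in other sites, and 409 of the 578 desert sites (70.8%) were below the median of all sites, against 2116 other sites (46.1%) and a background of 48.8% (Fisher's exact test, two-sided, OR = 2.83 [2.34–3.44], p = 1.47e-29). The median fell from class to class with distance, from 49.1% within 5 kb to 41.8% at 100 to 250 kb and 40.4% at 250 to 500 kb, and it was 39.6% at 500 to 1000 kb and 38.6% beyond, so that there was no step at the limit of 500 kb. The DNA around them differed in the same way, with a median of 36.0% for desert and 40.8% for other sites in windows 2 kb away. The desert sites were thus richer in GC than their surroundings by median, and so were the other sites.

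The other consensuses searched, on both strands, were a PBX-MEIS composite (TGAT or TGAG directly before TGACAG, which it therefore contains), a PBX-HOX site (TGATTTAT), and sites of SOX (ACAAAG or ACAATG), TEAD (CATTCC), FOX (TGTTTAC), LHX homeodomain (TAATTA) and AP-1 factors (TGACTCA or TGAGTCA), an E-box (CAGCTG) and a GC box (GGGCGG). Of the 10, only the GC box, which binds SP and KLF factors and is typical of promoters, differed between desert and other sites at an adjusted p under 0.05. It was found in 15 desert sites (2.60%) and 489 other sites (10.7%), with a background of 9.75% (OR = 0.224 [0.123–0.376], adjusted p = 3.15e-11, Benjamini-Hochberg over 10 Fisher's exact tests). Within classes of GC content the Mantel-Haenszel odds ratio was 0.559 [0.324–0.964], and 0 of the 10 consensuses passed the threshold after adjustment. The distance rule keeps canonical protein-coding promoters out of the desert sites, while 179 of the 489 other sites with a GC box lay within 5 kb of such a TSS. Against only the other sites outside gene bodies and over 20 kb from a TSS, of which 7.44% held a GC box, the odds ratio was 0.332 [0.179–0.574] (adjusted p = 9.04e-05, Benjamini-Hochberg over 10 Fisher's exact tests).

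**Figure D5:**
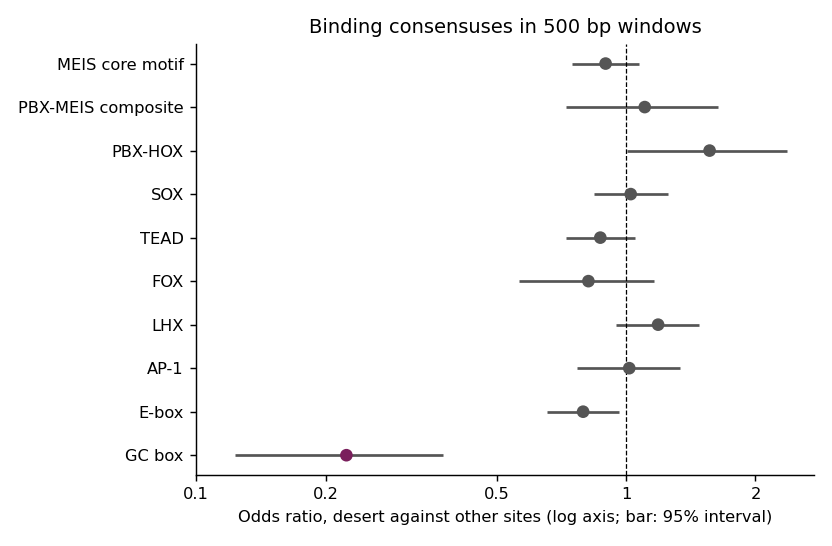
Odds ratio (x axis, log scale, bars are 95% intervals) for finding each of 10 consensuses (y axis) in the 500 bp window of desert against other sites, with the dashed line at 1. The GC box, in purple, is the only one with an adjusted p under 0.05, at 0.224, and the others lie between 0.794 and 1.56.

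The remaining consensuses were not distinguishable at this number of sites. The SOX consensus was in 71.4% of desert sites with a background of 71%, the TEAD consensus in 35.3% with a background of 38.2% and the AP-1 consensus in 11.9% with a background of 11.8%. The LHX consensus was in 20.6% (background 18.2%) and the FOX consensus in 6.57% (background 7.78%). The E-box was in 29.8% (background 34.2%, OR = 0.794 [0.654–0.962], adjusted p = 0.0881 by Fisher's exact test). The PBX-HOX consensus was in 29 desert sites (5.02%, background 3.46%, OR = 1.56 [1.003–2.37], adjusted p = 0.13 by Fisher's exact test), and in 4.76% of the windows 2 kb from desert sites.

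The PBX-MEIS composite was in 31 desert sites (5.36%), against a background of 4.93% (OR = 1.10 [0.726–1.63], adjusted p = 0.763 by Fisher's exact test) and 0.433% of the windows 2 kb from desert sites. In 24 of the 31 it was centred within 50 bp of the summit. The strongest of these 31 sites ranked 192 among all 5169 sites. The 3 strongest are printed here to show the arrangement of the half-sites, with capitals on the composite, all on the plus strand of GRCh37, and they were chosen after their values were seen.
SLC10A2 to DAOA site, chr13:104492229-104492338: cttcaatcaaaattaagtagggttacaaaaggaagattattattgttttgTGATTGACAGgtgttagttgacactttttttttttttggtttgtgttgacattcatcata
HDGFL1 to NRSN1 site, chr6:23590513-23590622: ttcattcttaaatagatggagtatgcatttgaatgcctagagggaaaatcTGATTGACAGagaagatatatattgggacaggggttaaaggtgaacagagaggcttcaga
MAT2B to TENM2 site, chr5:163681028-163681137: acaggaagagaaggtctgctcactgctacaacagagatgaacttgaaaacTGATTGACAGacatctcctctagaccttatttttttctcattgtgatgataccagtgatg

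In these 3 the composite was 218, 133 and 78.5 bp from the summit, and the sites had a -log10 p of 294, 256 and 124. All 3 read TGAT before the core.

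A difference in clustering within 10 kb was not shown over the whole list. Another reproducible site lay that close for 66 desert sites (11.4%) and 527 other sites (11.5%), with a background of 11.5% (Fisher's exact test, two-sided, OR = 0.994 [0.745–1.31], p = 1). Within 50 kb desert sites had fewer neighbors, with 168 of 578 against 1609 of 4591 (OR = 0.760 [0.624–0.921], Fisher's exact test, p = 0.00456). Among sites with an IDR of at most 0.001 the direction within 10 kb was the opposite, with more neighbors for desert sites, 47 of 377 against 240 of 2747 (OR = 1.49 [1.04–2.09], Fisher's exact test, p = 0.0223). There were 35 close pairs with a desert site, 34 of them between desert sites, and the closest, in NAALADL2, was 1381 bp apart with a -log10 p of 61.1 and 138. The strongest desert site had close neighbors on either side, at 3325 bp with 41.6 and at 9369 bp with 51.5.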

How the data were processed

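The authors trimmed reads with cutadapt 1.16, mapped them to GRCh37 with bowtie2 2.3.0, filtered alignments on a mapping quality of 30 (samtools 1.2), and discarded duplicates (Picard 2.15.0). They called peaks per replicate against Input with MACS2 (version not given in the sources used here) at a p-value of 0.01 and merged replicates with IDR 2.0.3. The deposited narrowPeak lists give, per the authors' peak caller, the fold enrichment (a ratio over Input) and the -log10 p of each peak, and the merged list gives the -log10 p of each site and an IDR score. The largest IDR in the list was 0.01. Another 8 columns of per-replicate values in it were not used. For each replicate, the overlapping peak with the highest -log10 p gave its value.

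Distances, sequence windows and counts were computed in Python 3.11.15 with pandas 2.3.3, pysam 0.24.0, scipy 1.17.1 and statsmodels 0.14.6. Odds ratios are conditional estimates with 95% intervals from two-sided Fisher's exact tests over sites. Both kinds of test were tested on simulated odds ratios. The simulated sites were independent of each other, so that the sharing of deserts by sites was not covered. Sites and genes were named by rule: the 10 strongest, the 3 most remote, 3 on each side of the limit, the 5 deserts with the most sites and up to 5 genes per list, of which 1 is not reported here. The members, consensuses and gene lists were chosen with earlier results of these data known. Input samples entered only through the peak calls. Alternatives covered the distance, annotation, IDR, windows, GC content and replicates.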

Additional observations from a re-analysis of the deposited data

How the results depend on the processing

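Of 89 alternative values, 57 kept direction and side of the threshold or, for counts, stayed within 1.5 times the reported count. The number of desert sites was 1345 at 250 kb, 141 at 1 Mb and 377 with an IDR of at most 0.001. It was 407 with the TSS of every transcript of a protein-coding gene. With the TSS of every annotated transcript it was 0, which left no sites for the other results. It ranged from 557 to 617 with a replicate left out. The odds ratio for strength was above 1 throughout. It no longer passed the threshold at 1 Mb (1.28), with the TSS of every transcript of a protein-coding gene (1.15) or with an IDR of at most 0.001 (1.11). Nor did it pass outside protein-coding bodies (1.204), against other sites outside gene bodies (1.19), for the strongest 10% (1.23) or in GC classes (1.19). It ranged from 1.14 to 1.33 with a replicate left out. Keeping the strongest site per desert gave 3.11, which the choice itself raises. The odds ratio for TGACAG passed the threshold at 250 kb (0.870) and turned at 1 Mb (1.03) and in GC classes (1.01), and ranged from 0.857 to 0.863 with a replicate left out. That for TGACAG near the summit, which passed the threshold nowhere, turned at 250 kb (0.988), with an IDR of at most 0.001 (0.863), with 1 site per desert (0.964 for the strongest, 0.963 for the first by position, an alternative added after the data were seen), within 25 bp (0.995) and 100 bp (0.831), and ranged from 0.910 to 1.04 with a replicate left out. That for a site within 10 kb turned at 250 kb (1.12), with an IDR of at most 0.001 (1.49, p = 0.0223 by Fisher's exact test) and against sites outside gene bodies (1.01), ranged from 0.905 to 1.195 with a replicate left out, and was 0.760 for 50 kb. The number of consensuses called was 0 in GC classes and ranged from 1 to 2 with a replicate left out, the second being the E-box without replicate 2. The replicate 1 peak comparison lost its call at 1 Mb (1.09), and that of replicate 2 once peaks below 5 in -log10 p were left out (1.06), and it turned at 1 Mb (0.951). The causes were not tested. The lower GC content of desert sites held in every alternative run, with odds ratios from 2.12 to 4.01. No paired analysis was possible because no values of the Input samples were in the files used here.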
